A study of Homo sapiens with 3 samples.

Results

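The constitutive proteasome subunits are the genes for the standard proteasome and its regulatory cap, here PSMA1 to PSMA7, PSMB1 to PSMB7, and the PSMC and PSMD genes, without the interferon-inducible subunits PSMB8, PSMB9 and PSMB10. They were chosen by gene symbol, as every probe set that the platform annotation pairs with exactly 1 such gene. That gave 57 of the 54613 non-control probe sets and 30 of the 34 genes. PSMA6 was represented by probe sets shared with another gene, and PSMA6, PSMC5, PSMD7 and PSMD13 were not analysed here. Expression was measured in HT29, a widely used human colon cancer cell line grown in DMEM with serum and transduced by lentivirus. The vector group holds 1 array of cells given an empty vector, and the miR-146a group holds 2 arrays of cells given a miR-146a expression construct. The study asked how the expression profile of HT29 cells differs once miR-146a is expressed. Both groups went through lentiviral transduction, and the labels do not say whether the cells were pooled or a clone, or whether the replicates were grown separately, so the p-values reflect only how these arrays scatter, which may be technical scatter.

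The proteasome is the protease that degrades proteins tagged with ubiquitin. Its core is a barrel of outer rings of PSMA (alpha) subunits, which gate the entrance, around inner rings of PSMB (beta) subunits, of which PSMB5, PSMB6 and PSMB7 carry the active sites. A regulatory particle sits on the barrel: its base holds the PSMC ATPases that unfold substrates together with scaffold and ubiquitin receptor subunits, and its lid holds the deubiquitinase PSMD14. Dividing tumour cells use this machine heavily, and interferon makes cells swap the active subunits for PSMB8, PSMB9 and PSMB10, which form the immunoproteasome. miR-146a is a microRNA known for damping innate immune signalling.

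The microRNA under study is printed first, with its seed (bases 2 to 8) in capitals, from RefSeq (GRCh38.p14, chr5:160485372-160485393, plus strand).
hsa-miR-146a-5p: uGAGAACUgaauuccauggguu
Promoter windows are shown for 4 genes whose values are described below. PSMC2 is an ATPase gene with all its probe sets higher in the miR-146a arrays, PSMD10 is a chaperone gene with all of them lower, and PSMB5 is a catalytic subunit whose inducible counterpart is PSMB8. Each runs from 250 bases before to 50 bases after a start site in RefSeq (GRCh38.p14), and for genes with several windows the one with the most motif matches is shown. Capitals mark matches on either strand to TGACNNNGC (the core of the antioxidant response element), CCGGAAG (an ETS core), CCAAT, GAAANNGAA (like an interferon-stimulated response element) or TTCNNNGAA (like a STAT site). Matches of different motifs may overlap.
PSMC2 chr7:103347393-103347692, plus strand: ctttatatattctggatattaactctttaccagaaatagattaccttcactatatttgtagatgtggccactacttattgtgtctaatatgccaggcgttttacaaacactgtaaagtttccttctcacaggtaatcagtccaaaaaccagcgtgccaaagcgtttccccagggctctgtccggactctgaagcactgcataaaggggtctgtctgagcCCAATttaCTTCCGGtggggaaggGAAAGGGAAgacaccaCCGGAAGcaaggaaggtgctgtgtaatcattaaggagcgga
PSMD10 chrX:108091493-108091792, minus strand: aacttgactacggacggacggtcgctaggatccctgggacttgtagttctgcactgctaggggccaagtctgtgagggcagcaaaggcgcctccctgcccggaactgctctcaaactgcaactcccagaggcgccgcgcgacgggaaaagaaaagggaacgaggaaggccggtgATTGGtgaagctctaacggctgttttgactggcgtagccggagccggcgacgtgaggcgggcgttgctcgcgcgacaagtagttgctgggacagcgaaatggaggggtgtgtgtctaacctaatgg
PSMB5 chr14:23034851-23035150, minus strand: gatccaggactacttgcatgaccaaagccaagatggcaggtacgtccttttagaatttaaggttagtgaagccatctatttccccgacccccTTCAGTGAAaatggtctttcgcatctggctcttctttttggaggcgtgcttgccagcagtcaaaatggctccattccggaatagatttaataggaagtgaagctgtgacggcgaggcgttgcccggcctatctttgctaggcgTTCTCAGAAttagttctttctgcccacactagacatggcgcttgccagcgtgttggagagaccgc
PSMB8 chr6:32843998-32844297, minus strand: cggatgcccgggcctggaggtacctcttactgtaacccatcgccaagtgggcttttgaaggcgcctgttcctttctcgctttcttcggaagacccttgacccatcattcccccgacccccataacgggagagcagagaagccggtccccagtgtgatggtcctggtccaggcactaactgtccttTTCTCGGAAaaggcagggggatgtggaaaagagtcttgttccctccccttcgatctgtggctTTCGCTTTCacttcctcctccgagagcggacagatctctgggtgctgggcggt
The PSMC2 window held a CCAAT match at base 220 and ETS matches at bases 228 and 260 and an interferon-element-like match at base 244, and the PSMD10 window held a CCAAT match at base 175. The PSMB5 window held STAT-like matches at bases 93 and 236, and the PSMB8 window held a STAT-like match at base 186 and an interferon-element-like match at base 248. Interferon-element-like letters also occurred in windows of PSMB10 and of the activator gene PSME1. Windows of PSMB9 held neither these nor the STAT-like letters. Of the 30 member genes 25 had a window, with 29 windows in all. The ETS core was in 8 of the 29 (27.6%, against 10.3% of all 35116 windows) and CCAAT in 14 (48.3% against 34.6%). The antioxidant core was in 8 (27.6% against 13.3%), the STAT-like letters in 5 (17.2% against 7.66%) and the interferon-element-like letters in 3 (10.3% against 8.11%), those of PSMA4, PSMB4 and PSMC2. These are matches of letters in a window and were not tested as binding sites.

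The values are log2 signals. The median over all non-control probe sets of the average signal (the mean of the vector value and the miR-146a mean) was 5.13, and 53 of the 57 member probe sets lay above it. The other 4 belong to PSMA3, PSMB2, PSMD5 and PSMD6, and each of these genes also had a brighter probe set. Of the 11 colon epithelial markers checked, 11 were above 5.13 in every array, while of the 9 measured markers of other cells 4 were (LYZ, COL1A1, CD14 and PECAM1). PTPRC, the pan-leukocyte marker, read 3.43, 3.36 and 3.30 in the vector array and miR-146a replicates 1 and 2. LYZ read 12.95, 12.72 and 12.96 in the same order, so the markers of other cells were not all low. Among the array's own control probe sets for ACTB and GAPDH, those at the 5′ end differed from the vector by -0.32 to -0.18 and those at the 3′ end by -0.03 to 0.05, and the part of this in the values below was not tested. In bulk RNA, fewer cells carrying a transcript and less of it per cell cannot be told apart. Precision is limited by the number of arrays, with no replicate of the vector.

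**Figure D1:**
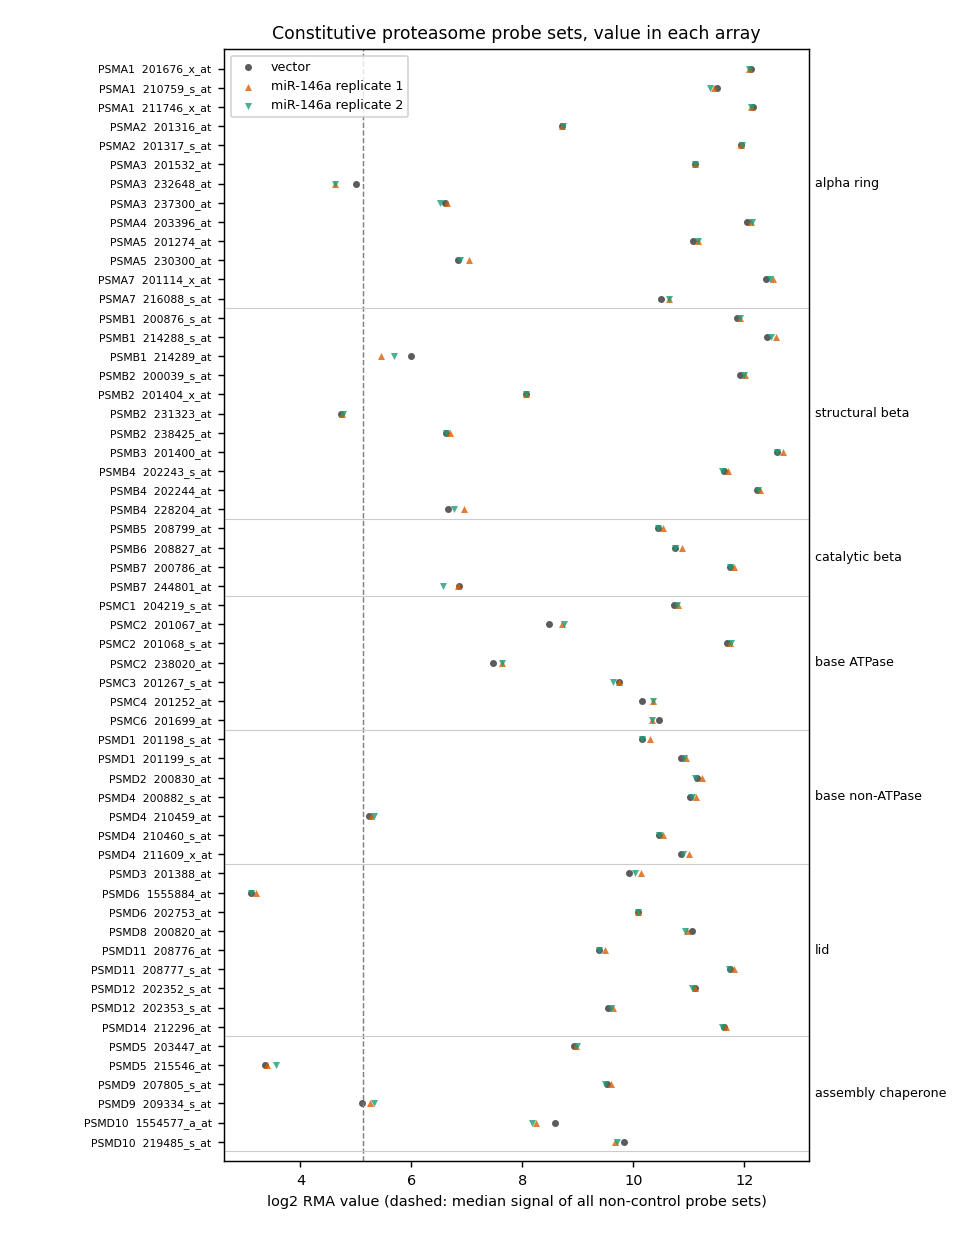
Log2 value of each of the 57 member probe sets (rows, grouped by role) in the vector array and the 2 miR-146a arrays. For most rows the 3 symbols nearly coincide, and 53 rows lie to the right of the dashed median signal of 5.13.

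The constitutive proteasome genes lay close to the vector in both miR-146a arrays. Over all 57 probe sets the mean log2 difference (miR-146a mean minus vector) ran from -0.42 to 0.26, with a median of 0.042, against a median of 0.00 over all probe sets and also over those above the median signal. The middle 50% of the members lay between 0.00 and 0.08, against -0.10 to 0.11 for the 27306 probe sets above the median signal. That range depends on signal: the 1934 probe sets as bright as the brighter members (average of at least 10.47) lay between -0.07 and 0.05, with a median of -0.0063. On the brightest probe set of each gene (that with the highest average signal), all 30 genes lay between -0.15 and 0.19. No member reached a difference of 0.25 (a 1.19-fold difference) upwards in both arrays, where 4.28% of all probe sets and 6.03% of those above the median signal did. Downwards 3 members did, or 5.26%, against 4.75% and 6.42%, which is near the background.

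Small differences upwards were more frequent than downwards. Of the 57 probe sets, 28 (49.1%) were higher than the vector in both arrays and 10 (17.5%) lower in both, where 29.1% and 28.9% of all probe sets were, and 36.0% and 33.1% of those above the median signal. A probe set exactly equal to the vector in either array counts as neither. Such sets made up 15.8% of members, 27.2% of all probe sets and 16.9% of those above the median signal. Counted by gene on the brightest probe set, 15 of 30 were higher and 4 lower in both arrays, against 33.1% and 27.0% of all 19775 genes. Shares over all genes, here and below, include dim genes. The direction was asked of single arrays too: the median difference was 0.066 in replicate 1 and 0.0039 in replicate 2, so the upward shift came mainly from replicate 1. That replicate read above replicate 2 in 35 members and below it in 14, and in 8 the values were exactly equal. Among probe sets above the median signal, replicate 1 read above replicate 2 in 49.9% and below it in 37.6%. A stricter count asks that the smaller of the 2 differences exceed the gap between the replicates. It kept 17 members as higher (29.8%, against 19.4% of all probe sets and 24.8% of those above the median signal) and 8 as lower (14.0%, against 19.5% and 22.1%).

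**Figure D2:**
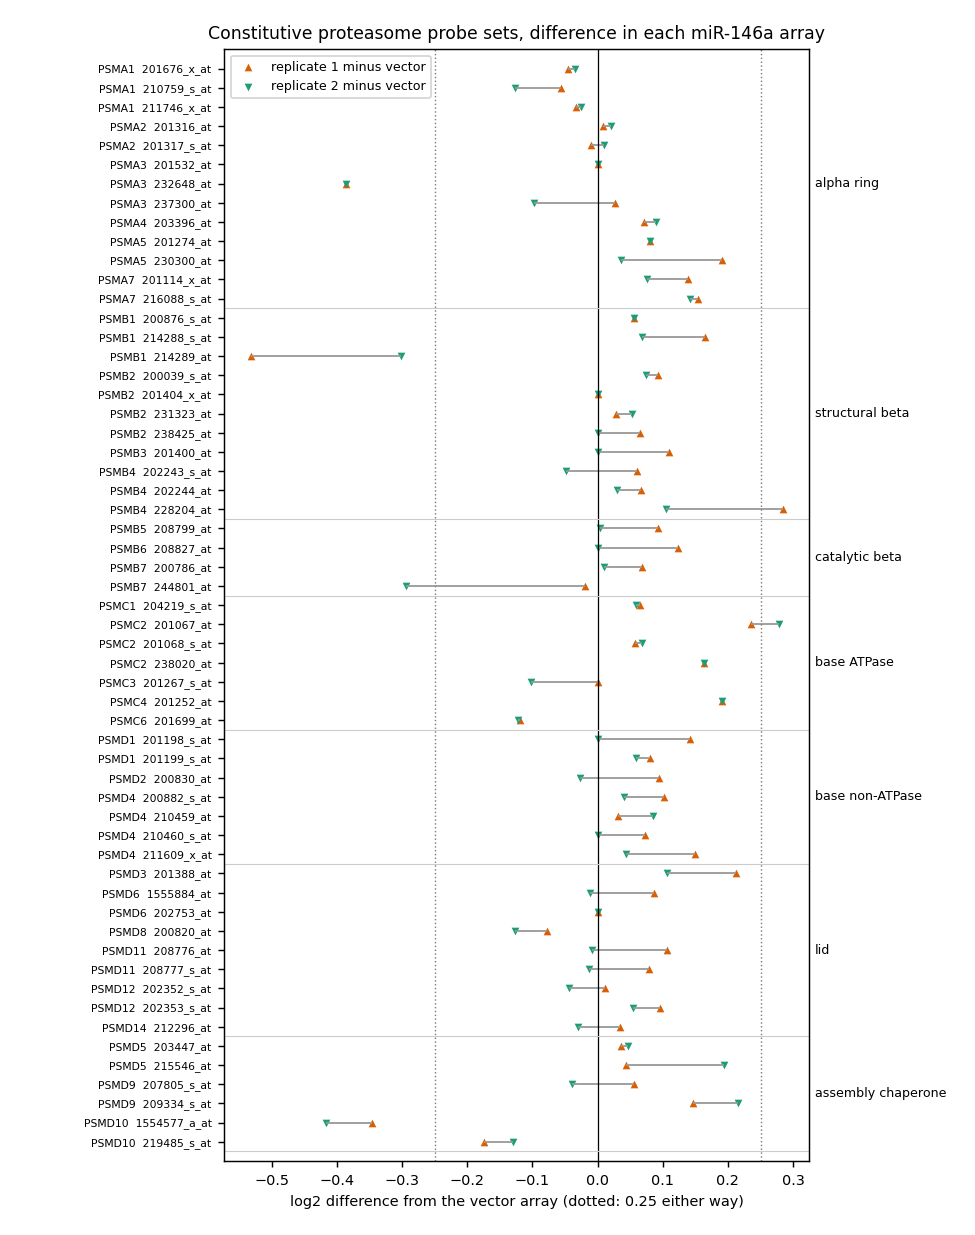
Log2 difference from the vector for each member probe set, with an upward triangle for miR-146a replicate 1 and a downward triangle for replicate 2. Nearly all pairs lie within 0.25 of 0, and the pairs wholly beyond it are PSMA3 232648_at, PSMB1 214289_at and PSMD10 1554577_a_at, on the lower side.

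No member passed limma (Benjamini-Hochberg adjustment over all 54613 probe sets, adjusted p under 0.05), and 0.0% of all probe sets did in either direction. On simulated data with the replicate ties of these arrays, the same fit recovered 0% of log2 changes of 1. The absence of calls thus cannot show that the members were unchanged. At an unadjusted p under 0.05 limma gave 8 members higher and 3 lower (14.0% and 5.26%), against 10.0% and 10.2% of all probe sets. The smallest adjusted p of a member was 0.0964, which was also the smallest in the table. In 19.3% of all probe sets and 14.0% of members both miR-146a arrays held the same value to every digit, which leaves these without a replicate spread. With a variance prior taken from probe sets whose replicates differ, 0 members passed among all 54613 probe sets, where 1.38% passed as higher and 1.94% as lower. That fit gave every probe set a standard error of 0.137 for the difference, so a 95% interval spans 0.27 to either side. This spread is pooled over bright and dim probe sets. The SD of replicate 1 minus replicate 2 was 0.14 over all probe sets, 0.079 over the members and 0.071 over the 1934 bright probe sets. The pooled spread is thus wider than the members' own replicates show, and the 0 calls and the intervals below rest on it. Another setting, chosen after the data were seen, kept only the 27306 probe sets above the median signal and estimated such a prior anew from them. That prior had 15.1 degrees of freedom, so the spread was no longer common to all probe sets, and both filter and spread differed. In that setting 2 of 53 members passed, both lower, against 4.14% higher and 4.78% lower. They were PSMD10 1554577_a_at (adjusted p = 0.0250 by limma) and PSMB1 214289_at (adjusted p = 0.0265 by limma). All of these tests take the single vector array to vary like the miR-146a arrays.

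**Figure D3:**
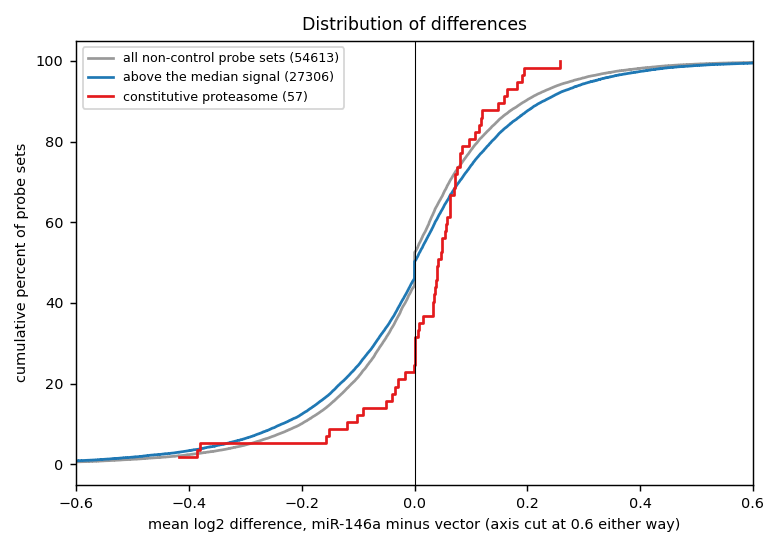
Cumulative percent of probe sets (vertical axis) by mean log2 difference between miR-146a and vector (horizontal axis, cut at 0.6 to either side), for the 57 members, the 27306 probe sets above the median signal and all 54613. The member curve is steeper than the others and crosses 50% at 0.042.

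Among the alpha ring genes, 6 of 13 probe sets were higher in both arrays and 4 lower, with a median difference of 0.00. Of all probe sets above the median signal 36.0% were higher in both arrays and 33.1% lower, and with so few sets a group the counts by role are a description only. PSMA7 was higher on both its probe sets: 216088_s_at read 10.49 with the vector and 10.65 and 10.63 with miR-146a, and 201114_x_at read 12.38 against 12.52 and 12.46. Both miR-146a values of each lay above the vector value, as on 36.0% of probe sets above the median signal. PSMA5 read 11.08 in the vector array and 11.16 in both miR-146a arrays on 201274_at. Its other probe set had a mean difference of 0.11, with 0.19 in replicate 1 and 0.036 in replicate 2. PSMA4 read 12.04 against 12.11 and 12.13. PSMA1 went the other way on all 3 of its probe sets, with mean differences from -0.09 to -0.03, and on 210759_s_at it read 11.50 against 11.45 and 11.38. PSMA2 lay within 0.02 of the vector on both probe sets in both arrays. PSMA3 read 11.11 in all 3 arrays on 201532_at, exactly the same value. Its dim probe set 232648_at, below the median signal, read 5.00 against 4.61 and 4.61, a mean difference of -0.39 that its bright set did not share.

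Among the structural beta subunits, which form the inner rings without an active site of their own, 6 of 11 probe sets were higher and 1 lower in both arrays (background 36.0% and 33.1%), with a median difference of 0.048. PSMB1 had probe sets on both sides of the vector. Its bright sets 200876_s_at and 214288_s_at read 11.87 and 12.41 in the vector array, 11.92 and 12.57 in replicate 1, and 11.92 and 12.48 in replicate 2. Its dimmer set 214289_at read 5.99 with the vector and 5.46 and 5.69 with miR-146a, a mean difference of -0.42 with a replicate SD of 0.16 (n = 2), and the lowest of all members. PSMB2 read 11.92 against 12.01 and 11.99 on its brightest set and was exactly equal in all 3 arrays on 201404_x_at. PSMB3 read 12.58 in the vector array, 12.69 in replicate 1 and 12.58 in replicate 2. PSMB4 differed by 0.048 and 0.0063 on its bright sets and by 0.19 on 228204_at, where replicates 1 and 2 differed from the vector by 0.28 and 0.11.

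The catalytic subunits showed no difference beyond the replicate spread. PSMB5, which carries the chymotrypsin-like activity, read 10.45 with the vector and 10.54 and 10.45 with miR-146a, a mean of 10.49 ± 0.06 (SD, n = 2). Its difference of 0.048 had a 95% interval from -0.22 to 0.32 under the prior from unequal replicates. PSMB6, the caspase-like subunit, read 10.76 against 10.88 and 10.76 (difference 0.06, interval -0.21 to 0.33). PSMB7, the trypsin-like subunit, read 11.74 against 11.81 and 11.75 on 200786_at (difference 0.039, interval -0.23 to 0.31). In each of these, replicate 1 was the highest array and replicate 2 lay at or just above the vector. The dimmer PSMB7 set 244801_at read 6.86 against 6.84 and 6.56, so that PSMB7, like PSMB1, had sets above the median signal in both directions.

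The interferon-inducible counterparts read higher in both miR-146a arrays. PSMB9, which replaces PSMB6, read 5.51 with the vector and 6.86 and 6.66 with miR-146a, a 2.37-fold difference. PSMB8, which replaces PSMB5, read 7.15 against 7.85 and 7.78, and PSMB10, which replaces PSMB7, read 8.40 against 8.65 and 8.58. All miR-146a values of these genes lay above their vector values, as on the brightest probe set of 33.1% of all genes. In the miR-146a arrays the log2 ratio of inducible to constitutive subunit was thus higher than in the vector array. The difference was 1.18 ± 0.05 (SD, n = 2) for PSMB9 to PSMB6, 0.62 ± 0.02 (SD, n = 2) for PSMB8 to PSMB5 and 0.18 ± 0.0048 (SD, n = 2) for PSMB10 to PSMB7. Both miR-146a arrays were set against the same vector array, so each SD leaves out the vector's own scatter. These differences between subunits were not tested. The activator subunit PSME1, also inducible by interferon, read 10.77 against 10.96 and 10.88.

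The ATPases of the base ring held the largest upward difference of any member. Of their 7 probe sets 5 were higher and 1 lower in both arrays, against 36.0% and 33.1% of probe sets above the median signal, and the median difference was 0.063. PSMC2 was higher on all 3 probe sets: 201067_at read 8.48 with the vector and 8.72 and 8.76 with miR-146a, a mean difference of 0.26 (1.20-fold, adjusted p = 0.486 by limma with the prior from unequal replicates), and 238020_at read 7.47 against 7.64 and 7.64. Its brightest set, 201068_s_at, differed by 0.063 only, with 11.69 against 11.75 and 11.76. PSMC4 read 10.16 in the vector array and 10.35 in both miR-146a arrays, a difference of 0.19 and the largest on the brightest probe set of any member gene. PSMC1, whose tail helps open the gate of the alpha ring, read 10.73 against 10.80 and 10.79. PSMC6 went the other way, with 10.46 in the vector array against 10.34 and 10.33. PSMC3 read 9.74 in the vector array and replicate 1 and 9.63 in replicate 2.

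The other base subunits lay in a narrow range. Their 7 probe sets had mean differences from 0.034 to 0.10, with 4 higher in both arrays and 0 lower (background 36.0% and 33.1%). PSMD2, a ubiquitin receptor and docking subunit, read 11.14 against 11.23 and 11.11, so that the vector value lay between the replicates. PSMD4, the ubiquitin receptor with ubiquitin-interacting motifs, differed by 0.036 to 0.10 on its 4 sets, and the brightest read 11.03 against 11.13 and 11.07. PSMD1, a large scaffold subunit, had a mean difference of 0.07 on both its sets. On 201198_s_at this came from replicate 1 alone (0.14), and replicate 2 equalled the vector.

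In the lid, 2 of 9 probe sets were higher and 1 lower in both arrays (background 36.0% and 33.1%), with a median of 0.078 in replicate 1 and -0.01 in replicate 2. PSMD14, the deubiquitinase that removes ubiquitin chains from substrates as they enter, read 11.63 with the vector and 11.66 and 11.60 with miR-146a, a difference of 0.0015 with an interval from -0.27 to 0.27. PSMD3 read 9.92 against 10.13 and 10.03, the largest upward difference of the lid at 0.16. PSMD8 read 11.05 against 10.97 and 10.93. PSMD6 read 10.09 in all 3 arrays on its bright set, exactly equal. PSMD11, a subunit that ties the lid to the core, was higher in replicate 1 and lower in replicate 2 on both its sets, by 0.11 and -0.0084 on 208776_at. PSMD12 differed by -0.016 and 0.07 on its 2 sets.

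The assembly chaperones PSMD5, PSMD9 and PSMD10 help build the base and are not part of the finished particle. PSMD10, also called gankyrin and known as an oncoprotein that binds RB1, was lower on both its sets. On 1554577_a_at it read 8.59 with the vector and 8.24 and 8.17 with miR-146a, a mean difference of -0.38 with a replicate SD of 0.05 (n = 2) and a 95% interval from -0.65 to -0.11. On the brighter 219485_s_at it read 9.84 against 9.67 and 9.71, a difference of -0.15 with an interval from -0.42 to 0.12. The miR-146a values lay below the vector on both sets. By limma over all probe sets, where no probe set passed, neither did, with adjusted p = 0.213 and 0.303. By limma with the prior from unequal replicates neither passed, with adjusted p = 0.112 and 0.928. PSMD5 read 8.94 against 8.97 and 8.98 on its bright set. PSMD9 read 9.53 against 9.59 and 9.49 on its bright set, and 5.11 against 5.25 and 5.32 on 209334_s_at, just above the median signal on average.

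Of the 30 genes 18 had more than 1 probe set, and 2 of the 18 (PSMB1 and PSMB7, 11.1%) had sets higher and sets lower in both arrays, against 25.9% of all genes with more than 1 probe set. In 9 genes every probe set was higher than the vector in both arrays (PSMA4, PSMA5, PSMA7, PSMB5, PSMC1, PSMC2, PSMC4, PSMD3 and PSMD5), in 4 every probe set was lower (PSMA1, PSMC6, PSMD8 and PSMD10), and the other 17 did neither. These are 30.0% and 13.3% of the genes, against 18.8% and 16.0% of all 19775 genes. Among genes with more than 1 probe set they were 4 and 2 of 18 (22.2% and 11.1%), against 8.78% and 7.26%, and sets of a gene can share transcripts and need not be equally bright. Values of a gene's several sets are not independent, since they can share transcripts and were read on the same arrays. Probe sets with names ending in _x_at or _s_at can also bind other transcripts. Of the 3 members at least 0.25 lower in both arrays, each was the dimmest set of its gene, and of PSMA3, PSMB1 and PSMD10 it was PSMD10 whose remaining set was also lower in both arrays.

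The other genes of the pathway were taken from a list of 38, of which 31 were measured, each by its brightest probe set. Of these, 20 were higher in both arrays and 5 lower, with a median difference of 0.09, where 33.1% and 27.0% of all genes were and the median over all genes was 0.0028. At least 0.25 higher in both arrays were 4 (PSMB9, PSMB8, PSMG3 and PSMG4), against 5.02% of all genes, and 0 were as much lower, against 2.86%. Limma, which passed no probe set of the whole array, passed 0 of the 31 at an adjusted p under 0.05. It gave 9 of the 31 at an unadjusted p under 0.05, and of these only NFE2L1 was lower. At that p 10.0% of all probe sets, dim ones included, were higher and 10.2% lower. With the prior from unequal replicates PSMB8 and PSMB9 passed, both higher, as 1.38% of all probe sets did (1.94% lower). PSMG3, a chaperone for the assembly of the alpha ring, read 9.06 in the vector array against 9.43 and 9.41. PSMG4, its partner, read 9.48 against 9.78 and 9.78, although its 5 sets ranged from -0.26 to 0.30. UBE3C, a ubiquitin ligase that binds the proteasome, read 9.83 against 10.00 and 9.98, with its 5 sets from -0.47 to 0.16, and ECPAS, a proteasome adaptor, 9.66 against 9.77 and 9.80. NFE2L1, the transcription factor that raises proteasome genes when activity falls short, was named after its values were seen and read 10.13 against 10.05 and 10.04.

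**Figure D4:**
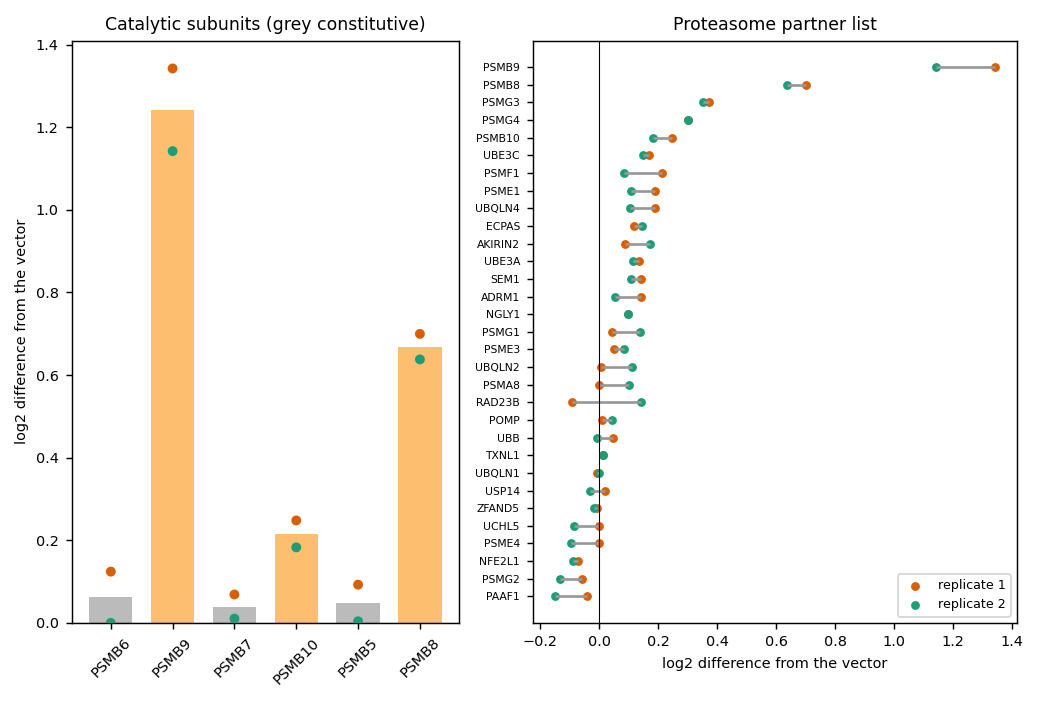
Left, log2 difference from the vector for each constitutive catalytic subunit (grey bars, mean of both miR-146a arrays) beside its inducible counterpart (orange bars), with the 2 arrays as points. Right, the same difference for the 31 measured genes of the partner list, ordered by their mean, with PSMB9 and PSMB8 farthest to the right.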

How the data were processed

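Gene expression in 3 arrays of HT29 cells (1 vector, 2 miR-146a, grouped by the titles) was taken from the deposited log2 values, to which the authors applied RMA, according to the submitters' processing notes; the sources used here do not state its version or whether other arrays were processed with these. Of 54675 probe sets, 62 controls were left out. The supplied platform annotation pairs 41091 probe sets with 1 gene and 1801 with several, and leaves 11721 unnamed here. The members, lists, tests and most alternatives were chosen with earlier results of these data known. Differences are miR-146a mean minus vector; each SD is over both miR-146a arrays. The test was limma 3.58.1 (lmFit, eBayes; R 4.3.3), two-sided, unfiltered, with Benjamini-Hochberg adjustment over all 54613 probe sets and 1 residual degree of freedom. An alternative took the variance prior from the 44062 probe sets with unequal replicates, which gave all probe sets a common spread. Genes named in full are the 6 highest and 6 lowest member probe sets by the smaller array difference, the catalytic subunits, ATPases, chaperones, PSMD2, PSMD4 and PSMD14, genes with sets in both directions, and the inducible and up to 4 other partners; further members (the remaining alpha, beta, base and lid genes) were described after their values were seen. Promoter and microRNA sequences come from RefSeq, matched by symbol. On simulated data for the 54613 probe sets with 200 changed and no tied replicates, limma recovered 100% of log2 changes of 1 and 37.0% of log2 changes of 0.5. With the replicate ties of the data it recovered 0% and 0.0%, and with the other prior then 100% and 53.0% (16 false calls among 169). The simulation gave all probe sets 1 common spread, which that prior assumes, and held no ties with the vector, so it favours that prior. Alternatives were other filters, priors, gene summaries, normalizations and leaving out an array. Figures were drawn with matplotlib 3.10.9.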

Additional observations from a re-analysis of the deposited data

How the results depend on the processing

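Among the 12 highest and lowest member probe sets, 0 of the 24 differences recomputed under quantile normalization and cyclic loess changed sign, and 9 moved by more than 1 replicate SD. Those that moved include sets of PSMA3, PSMC2 and PSMC4 with exactly equal replicates, where any shift exceeds the SD of 0.0. The others were PSMC6 (SD 0.0021) and, under quantile normalization, PSMA7 (SD 0.0086). The shifts themselves were small: this PSMC2 set went from 0.163 to 0.139 under quantile normalization and 0.146 under cyclic loess. The count of moved values thus cannot show a dependence on normalization. The count of probe sets that passed limma was 0 with either filter, an intensity trend, 1 probe set per gene, quantile normalization or cyclic loess. It was 1815 with the prior from unequal replicates. With such a prior estimated anew above the median signal it was 2436, and 2 members passed. The count of members at least 0.25 higher, which was 0 over both arrays, was 1 without replicate 1 and 1 without replicate 2 (a single array then decides). Without replicate 1 the members lower than the vector numbered 20, against 10 over both arrays and 11 without replicate 2, and the median over members was 0.0039, against 0.066 without replicate 2 and 0.042 over both arrays. The median over member genes was 0.0044 and 0.068 in turn, against 0.044, and that over partner genes 0.10 and 0.05, against 0.09 (0.049 with all probe sets of a gene averaged). Partner genes lower in both arrays were 9 with all probe sets averaged, and 7 to 8 with an array left out. Under quantile normalization and cyclic loess 34 and 28 members were higher and 12 and 14 lower, where 41.0% and 37.0% of probe sets above the median signal were higher and 36.6% and 41.0% lower. With an array left out no test was made, since no residual degree of freedom remains. No paired analysis was possible because the vector group has 1 array. No detection calls were used, so whether the 4 dimmest members stood above background is unknown.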
